A study of Homo sapiens with 6 samples.

Results

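The genes described here are the 3 members of the GADD45 family (GADD45A, GADD45B and GADD45G) together with CDKN1A, MDM2, BBC3, DDIT3 and DDIT4, 8 genes that respond to DNA damage or other cell stress, among 20007 protein-coding genes. They were chosen on the high summit pileups of the GADD45A regions in a CUT&RUN experiment, with the family and p53-linked genes added for comparison, so that the pileups of GADD45A are a description and carry no test. In CUT&RUN an antibody directs a nuclease to its target, and the DNA fragments released around the target are sequenced. Each gene was examined over its body and 20 kb on either side, and a region is 1 record of a peak list. The 8 windows held 10 of the 19108 regions found with full-length ZNF469 and 0 of the 54 found with dZF-ZNF469.

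An antibody against ZNF469 was used in LX-2 cells, an immortalized human hepatic stellate cell line. All cells carried a piggyBac transgene under doxycycline control, for either full-length human ZNF469 or dZF-ZNF469, in which most of the zinc fingers are deleted, and all received doxycycline at 1 ug/mL for 24 h. Of the 6 libraries, 3 came from each construct, and each construct was studied in its own stable line with its own clone name, so the construct and the line cannot be told apart. The labels name puromycin for the selection of the lines and the study's methods name Geneticin. The deposited lists combine the 3 libraries of a group and give 1 value per region, so no difference has a replicate error. The lists hold no RNA, so the identity of the line could not be checked against stellate cell markers.

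GADD45 proteins are small nuclear proteins without enzymatic activity that bind cell cycle and DNA repair partners, such as PCNA and the CDK1-cyclin B1 complex, and activate the stress kinase MAP3K4. GADD45A is a classical target of the tumor suppressor p53, which binds a response element in an intron of the gene, whereas GADD45B is best known as a gene induced by NF-kB and TGF-β. CDKN1A encodes the cell cycle inhibitor p21, MDM2 the ubiquitin ligase that degrades p53, and BBC3 the proapoptotic protein PUMA, and all are direct p53 targets. DDIT3 encodes CHOP, a transcription factor of the unfolded protein response, and DDIT4 encodes REDD1, an inhibitor of mTORC1 signaling that is induced by hypoxia, energy stress and DNA damage. AP-1, a dimer of JUN and FOS family proteins, is an activator of many stress-induced genes.

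Full-length ZNF469 regions at GADD45A formed a cluster around the start of the gene. The gene lies on chromosome 1 from 67685201 to 67688334 (hg38, plus strand, ENSG00000116717.13). Positions below are those of region summits, counted in kb from the 5′ end of the gene, with negative values upstream. The sequences of the 4 regions with the highest pileups are shown first, because they carry the main observation. Each runs 100 bp to either side of the summit within the region, from hg38 and on the gene's strand, and stops where a 5′ UTR is annotated. Capitals mark matches to the AP-1 motif or to the p53 response element.
GADD45A far upstream, chr1:67679811-67680011, plus strand: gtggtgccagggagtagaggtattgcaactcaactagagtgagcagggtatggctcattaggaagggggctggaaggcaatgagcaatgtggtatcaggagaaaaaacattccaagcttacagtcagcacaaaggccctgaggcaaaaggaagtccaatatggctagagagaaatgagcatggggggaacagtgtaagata
GADD45A near upstream, chr1:67682818-67683018, plus strand: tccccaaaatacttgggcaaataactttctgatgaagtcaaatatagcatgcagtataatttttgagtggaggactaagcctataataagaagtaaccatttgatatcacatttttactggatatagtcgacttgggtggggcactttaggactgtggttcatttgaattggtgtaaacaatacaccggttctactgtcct
GADD45A promoter, chr1:67685036-67685200, plus strand: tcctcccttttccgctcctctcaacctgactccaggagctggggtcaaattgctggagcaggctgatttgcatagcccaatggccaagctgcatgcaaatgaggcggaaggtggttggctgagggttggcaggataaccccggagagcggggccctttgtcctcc
GADD45A intron 3, chr1:67686741-67686941, plus strand: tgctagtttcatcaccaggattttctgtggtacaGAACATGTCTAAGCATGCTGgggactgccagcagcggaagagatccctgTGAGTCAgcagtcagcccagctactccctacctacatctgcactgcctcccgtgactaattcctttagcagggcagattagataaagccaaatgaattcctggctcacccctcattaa

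Of these sequences, the one in intron 3 held both motifs, with a p53 element ahead of the summit and an AP-1 site 14 bp from it. No capitals appear in the promoter sequence or in the 2 upstream sequences, because neither motif matched within these windows.

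**Figure D1:**
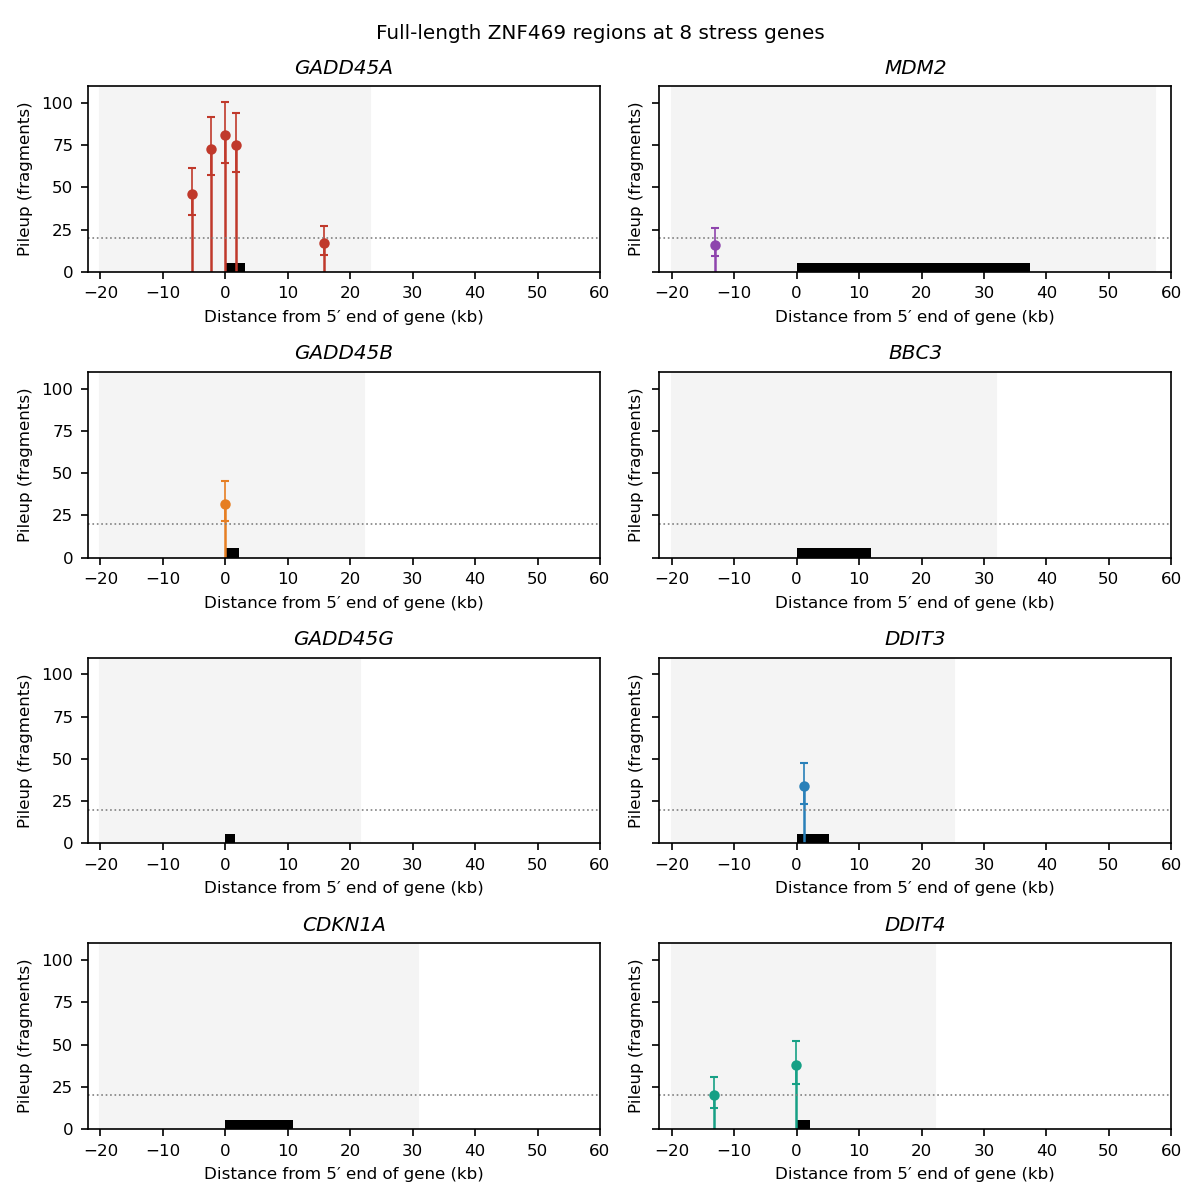
Full-length ZNF469 regions at the 8 genes. The x axis gives the distance of the summit from the 5′ end of the gene in kb and the y axis the summit pileup in fragments. Points are regions, error bars are exact 95% Poisson limits, black bars are gene bodies, grey shading is the window of 20 kb on either side, and the dotted line is the median pileup of the list (20). The 4 high regions of GADD45A, with 46 to 81 fragments, stand close to its start, and the windows of GADD45G, CDKN1A and BBC3 are empty.

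The promoter region of GADD45A (67685005 to 67685216, 212 bp wide, summit at -0.065 kb) had the highest pileup of the 8 windows, 81 fragments with exact 95% Poisson limits of 64.3 to 101. Pileup is the number of fragments covering the summit in the pool of 3 libraries, and these limits cover counting error only. The region overlapped exon 1, with its summit just upstream of it. It ranked 43 among the 19108 full-length regions by pileup. The second highest region lay inside the gene (67686682 to 67687042, summit at 1.64 kb) and was wholly in intron 3, with 75 fragments (59.0 to 94.0). The near upstream region (67682728 to 67683121, summit at -2.28 kb) had 73 fragments (57.2 to 91.8). The limits of these 3 regions overlapped one another. Further upstream, the region from 67679801 to 67680072 (summit at -5.29 kb) had 46 fragments (33.7 to 61.4).

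These 4 regions spanned 7.24 kb, with summits 3.01, 2.22 and 1.71 kb apart. All 4 belonged to the upper 10% of the list by pileup, which began at 35 fragments. The lowest of them, at -5.29 kb, still exceeded 96.6% of full-length regions, and the promoter region exceeded 99.8%.

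The fifth region of the window lay downstream of the gene (67700659 to 67701274, summit at 15.9 kb), outside any annotated gene, with 17 fragments (9.90 to 27.2), below the list median of 20. It was also the widest, at 616 bp. Beyond the window, the next region lay 22.1 kb from the gene and had 20 fragments.

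Few genes had windows like that of GADD45A. Among all protein-coding genes, 3.54% had 5 or more full-length regions within the same distance, 0.35% had 4 or more regions of the upper 10% by pileup, and 0.105% had a pileup of 81 or more. These shares describe the place of a gene that was chosen for its pileups. The 21 genes of the last share include GNG12, a G protein gamma subunit gene whose window reaches the GADD45A promoter region, so that both genes count the same fragments. In the order of highest pileup, the genes just above were MYL12A and MYL12B, neighbouring genes of nonmuscle myosin regulatory light chains that share a region with 88 fragments, and the transcription factor gene KLF7 with 83. Just below stood GNG12 and then CCN1, a matricellular protein gene, and CRIM1, a gene for a transmembrane protein that binds BMPs, with 80 fragments each. The limits of the GADD45A pileup included all of these values.

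Fold and pileup placed GADD45A at opposite ends of the list. Fold enrichment, column 7 of the peak lists, compares the summit pileup with the local background, the number of fragments that the peak caller expected at that position. The folds of the 4 high regions were 5.13, 5.21, 5.45 and 4.99 from the far upstream region to intron 3, all below the list median of 7.36 and below its lower quartile of 6.32. Their local backgrounds were 8.17, 13.2, 14.1 and 14.2 fragments, whereas the list median was 1.82. Between 99.4% and 99.9% of full-length regions had a lower background, and 5.81% to 10.4% had a lower fold. Column 8, the −log10 p-value of the pileup over that background, was 20.01, 30.2, 34.6 and 29.7, against a list median of 15.0. The promoter region exceeded 96.8% of the list in this column. With the upper 50% of records by fold kept, GADD45A had 0 regions. The downstream region had a fold of 5.60 over a background of 2.21 and a −log10 p-value of 10.5.

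**Figure D2:**
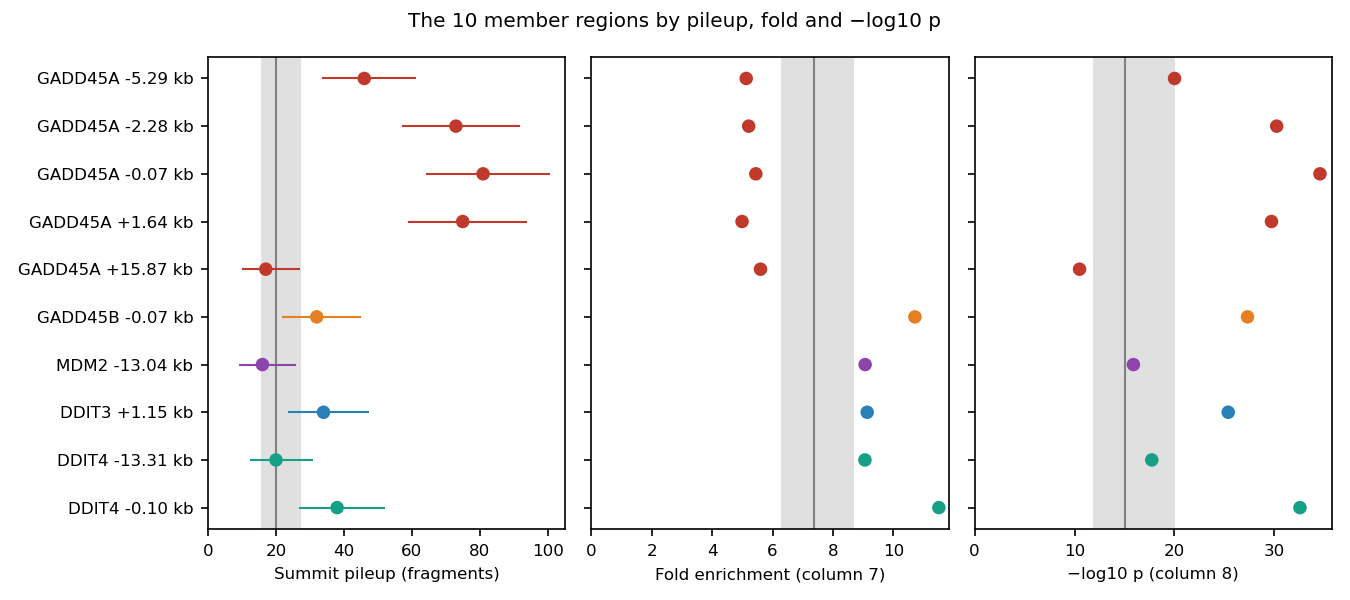
The 10 regions by summit pileup in fragments (left, with exact 95% Poisson limits), fold enrichment (middle) and −log10 p-value (right). Row labels give the gene and the position of the summit in kb from its 5′ end, and the grey band and line are the quartiles and median of the full-length list. The 4 high GADD45A regions lie right of the band by pileup and left of it by fold, and the GADD45B, DDIT3 and DDIT4 promoter regions lie right of it in all 3 panels.

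Backgrounds were higher where regions were crowded, a measure added after the values were seen. Each of the 4 high GADD45A regions had 3 other full-length regions within 10 kb of its summit. Such crowding was found for 342 full-length regions (1.79%), which had a median background of 4.17 and a median fold of 5.88. The 12208 regions with no other region within 10 kb (63.9%) had a median background of 1.60 and a median fold of 7.63. Among the 117 other upper 10% regions with at least 3 neighbours, the median background was 6.29 (quartiles 5.24 and 8.54) and the median fold 6.31 (5.35 and 7.86). The backgrounds at the near upstream region, the promoter and intron 3 of GADD45A exceeded the upper of these quartiles. How the caller's background window contributed to the low folds was not tested.

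The rest of the family differed from GADD45A in the number of regions. GADD45B (chromosome 19, 2476122 to 2478259, plus strand) had 1 full-length region, at its promoter, and GADD45G (chromosome 9, 89605012 to 89606555) had 0. The sequences of the GADD45B and DDIT4 promoter regions, which had the highest folds of the 8 windows, and of the DDIT4 distal region, which has an AP-1 match near the summit, are shown next in the same way.
GADD45B promoter, chr19:2475952-2476126, plus strand: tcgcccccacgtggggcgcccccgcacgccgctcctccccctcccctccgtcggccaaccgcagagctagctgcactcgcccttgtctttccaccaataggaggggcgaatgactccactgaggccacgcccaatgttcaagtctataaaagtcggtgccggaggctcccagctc
DDIT4 promoter, chr10:72273720-72273918, plus strand: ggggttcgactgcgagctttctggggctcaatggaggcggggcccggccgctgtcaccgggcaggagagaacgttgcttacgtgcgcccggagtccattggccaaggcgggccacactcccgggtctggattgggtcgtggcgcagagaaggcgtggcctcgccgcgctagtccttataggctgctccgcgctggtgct
DDIT4 distal, chr10:72260509-72260709, plus strand: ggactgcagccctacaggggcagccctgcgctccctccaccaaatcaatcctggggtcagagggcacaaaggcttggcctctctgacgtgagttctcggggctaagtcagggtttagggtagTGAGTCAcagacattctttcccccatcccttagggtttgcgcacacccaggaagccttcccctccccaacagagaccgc

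The GADD45B region (2475914 to 2476152, 239 bp) had its summit at -0.07 kb and overlapped exon 1. Its pileup was 32 fragments (21.9 to 45.2). Its background was 2.08, so that its fold of 10.7 was higher than that of GADD45A and exceeded 93.2% of the list. The −log10 p-value was 27.3. No other full-length region lay within 50 kb of GADD45B, and the nearest outside the window was 54.3 kb away with 8 fragments. For GADD45G the nearest full-length region was 183 kb away, with 19 fragments. Both promoters thus held a region, at pileups of 81 and 32 and folds of 5.45 and 10.7.

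The p53 targets CDKN1A, MDM2 and BBC3 had no region at their promoters or within their bodies. An empty window means that no record passed the filters of the list, which does not show that ZNF469 was absent. CDKN1A (chromosome 6, 36676460 to 36687337) had 0 full-length regions in its window, and the nearest lay 82.0 kb from the gene. BBC3 (chromosome 19, 47220822 to 47232766, minus strand) had 0 in its window as well. Its nearest region was just outside, 24.0 kb from the gene, with 18 fragments and a fold of 6.71. MDM2 (chromosome 12, 68808177 to 68845544) had 1 region, from 68795006 to 68795206 with its summit at -13.0 kb, in intergenic sequence. Its 16 fragments (9.15 to 26.0) stood over a background of 0.876, giving a fold of 9.06 and a −log10 p-value of 15.9. The pileup was below the list median of 20, while the fold was above the upper quartile of 8.66.

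DDIT4 (chromosome 10, 72273919 to 72276036, plus strand) had 2 regions. The promoter region (72273594 to 72273998, summit at -0.099 kb) had 38 fragments (26.9 to 52.2) over a background of 2.39. Its fold of 11.5 was the highest of the 10 regions, and its −log10 p-value of 32.6 came second to the GADD45A promoter. It overlapped exon 1 of DDIT4 and the noncoding gene ENSG00000289506. The distal region (72260449 to 72260833, summit at -13.3 kb) lay outside any annotated gene, with 20 fragments (12.2 to 30.9) and a fold of 9.06. The next region beyond the window was 21.9 kb from the gene and had 17 fragments.

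DDIT3 (chromosome 12, 57516588 to 57521737, minus strand) had 1 region, from 57520377 to 57520778. It overlapped exon 1 of the main transcript, with the summit 71 bp upstream of its start and 1.15 kb inside the annotated gene, whose longest transcript begins further upstream. It held 34 fragments (23.5 to 47.5) over a background of 2.83, with a fold of 9.13 and a −log10 p-value of 25.4. The region also overlapped MBD6 and the gene ENSG00000285133, whose start was 0.105 kb from the summit, so it cannot be assigned to DDIT3 alone. With 34 fragments it was just outside the upper 10% by pileup, and the DDIT4 promoter region with 38 was just inside.

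In its window, a full-length region was present for 5 of the 8 genes, beside 52.0% of all protein-coding genes, and 4 had one within 3 kb of an annotated start (GADD45A, GADD45B, DDIT3 and DDIT4), beside 27.5%. A region of the upper 10% by pileup was found at 2 (GADD45A and DDIT4), beside 8.06% of all genes. Since the rule used these lists, nothing is read from these counts. GADD45A accounted for 5 of the 10 regions and for 67.6% of their summed pileup.

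CpG counts of promoters with and without a region overlapped. In RefSeq promoter sequences (GRCh38.p14, a fixed length around the start), which were matched for 7 of the 8 genes and not for GADD45A, the CpG count was 27 for GADD45B, 26 for DDIT3 and 30 for DDIT4. It was 25 for GADD45G, 29 for CDKN1A and 39 for MDM2, which had no region there, beside a median of 22 over 15345 promoters. BBC3 had the fewest of the 7, with 5 CpGs, and 16.2% of all promoters had fewer. Its sequence surrounds the outermost annotated start of BBC3, and the main transcript starts outside it, at 47231199. Within 100 bp of the summits, the 10 regions had a GC content of 34.8% (MDM2 distal) to 67.7% (DDIT4 promoter). For the GADD45A regions it was 48.3%, 37.3%, 61.2%, 49.8% and 55.2% from far upstream to downstream. The median of the full-length list was 45.3%, with 53.7% for regions within 3 kb of a start and 42.8% for the rest.

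AP-1 sites were sought next. The motif was TGAGTCA or TGACTCA, which are the reverse complements of each other. Within 100 bp of the summit it was present in 3 of the 10 regions (30%, exact 95% binomial interval 6.67% to 65.2%), beside 32.3% of all full-length regions. Among full-length regions it was found in 22.2% of those within 3 kb of a start and 38.8% of the rest. Of the 10 regions, 6 lay within 3 kb of an annotated start of their own gene, and 4 lay farther away. The 3 regions with a site were GADD45A intron 3, where it lay 14 bp from the summit, the DDIT4 distal region (25 bp) and the MDM2 region (81 bp). Of these, intron 3 was within 3 kb of a start of its own gene and the others were not. In the full width of the regions, 6 of 10 held a site, beside 44.1% of the list. The further 3 were the near upstream and downstream regions of GADD45A and the DDIT3 region, with sites 160 to 167 bp from the summit. The promoter regions of GADD45A, GADD45B and DDIT4 and the far upstream region of GADD45A had none in their full width.

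**Figure D3:**
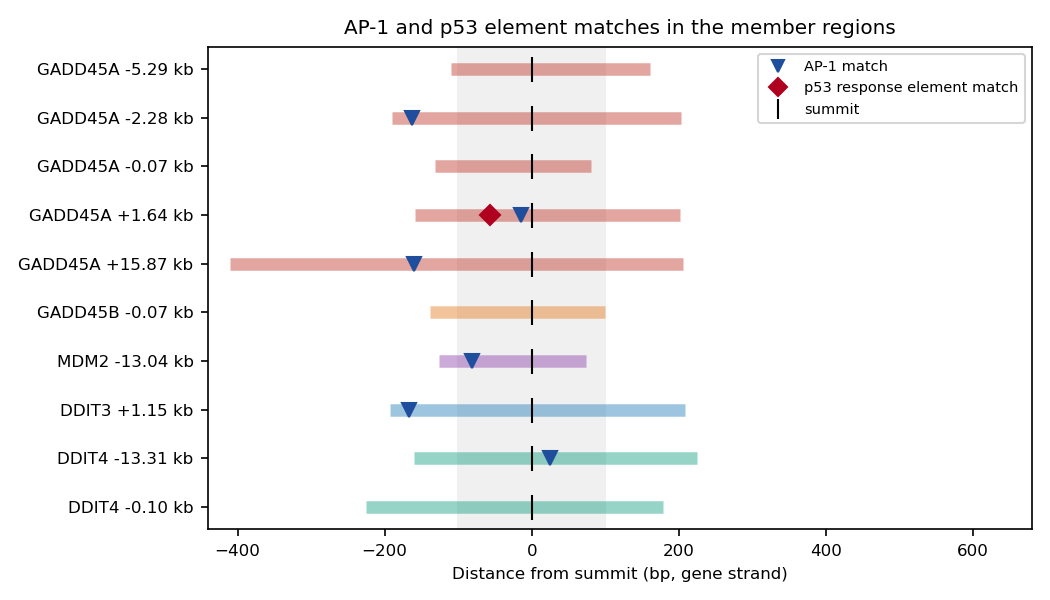
Positions of motif matches in the 10 regions, in bp from the summit along the strand of the gene. Bars are regions, black ticks are summits, triangles are AP-1 matches, the diamond is the p53 response element match, and the grey band covers 100 bp on either side. The region in intron 3 of GADD45A holds both kinds of match, and 3 of the 6 AP-1 matches lie outside the band.

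Most AP-1 matches in the windows were not in a region, a count that was also added later. The 8 windows held 76 matches, of which 6 were in a full-length region. GADD45A had 10 with 3 in a region, MDM2 had 17 with 1, DDIT4 had 12 with 1 and DDIT3 had 4 with 1. CDKN1A and GADD45B had 11 each, GADD45G had 7 and BBC3 had 4, with 0 in a region. The RefSeq promoters of BBC3 (at its outermost start) and DDIT3 held 1 match each, which for DDIT3 was the one in its region. Of all promoters, 3.68% held such a match.

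The p53 response element, a pair of half-sites of 10 bases, was sought with a spacer of 0 or 1 base and with at most 3 mismatches, keeping the C and G of each core. It matched in 1 of the 10 regions, GADD45A intron 3, and in 1.46% of all full-length regions. This match had 1 mismatch, began 1.57 kb into the gene (67686775 to 67686794), and lay within 100 bp of the summit. With at most 1 mismatch the element was present near the summit of 8 full-length regions in all, of which 3 also held an AP-1 match. This element and 4 others from the windows, a selection of those with at most 2 mismatches, are shown to compare sites inside and outside a region. Among those left out is a CDKN1A element with 1 mismatch at -9.20 kb, also without a region. Here capitals mark the bases that match the element, and small letters mark mismatches and spacers.
GADD45A intron 3, chr1:67686775-67686794, plus strand: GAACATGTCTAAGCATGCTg
GADD45A downstream, chr1:67691836-67691856, plus strand: AGGCATGTTTgGAGCTAGCTT
CDKN1A 5′ end, chr6:36676449-36676468, plus strand: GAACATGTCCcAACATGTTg
MDM2 gene body, chr12:68808923-68808942, plus strand: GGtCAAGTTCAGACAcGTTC
DDIT4 upstream, chr10:72270764-72270783, plus strand: AAGCATGTCTAGGCAAGCCC

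Among these 5 elements, only the first lay in a full-length region. The downstream GADD45A element, at 6.64 kb, and the DDIT4 element, at -3.16 kb, had 0 mismatches and no region. Those at the 5′ end of CDKN1A (-0.011 kb) and in the body of MDM2 (0.746 kb) had 2 mismatches each and no region. The CDKN1A distance is counted from the outermost annotated start, and the main transcript starts further downstream, at 36678714. Over the 8 windows there were 12 elements with at most 2 mismatches, of which 1 was in a full-length region, and 53 with at most 3, of which the same 1 was. As for AP-1, regions covered only a small part of the windows, and the counts were not tested against that part. A cAMP response element (TGACGTCA) and the C/EBP-ATF element (TGATGNAAT, both strands), which is known for the control of DDIT3 and related genes, matched in 0 of the 10 regions and in 0.691% and 1.74% of all full-length regions. These matches are descriptions of letters and were not tested for binding by any factor.

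Other p53 targets and stress response genes were examined in the same windows to place the members. Of 24 other p53 targets, 20 had a full-length region in the window and 16 within 3 kb of a start, beside 52.0% and 27.5% of all protein-coding genes. The median number of regions per window was 2, beside 1 for the 8 members and 1 over all genes. PLK3, a stress kinase gene (43 fragments, 31.1 to 57.9), and FDXR, a mitochondrial ferredoxin reductase gene (36, 25.2 to 49.8), had a region of the upper 10% by pileup within 3 kb of a start. ZMAT3, BTG2 and TP53INP1, named after their values were seen, had no region in the window. XPC, a nucleotide excision repair gene, equalled GADD45A in number with 5 regions.

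Of 12 genes of the integrated stress response and the unfolded protein response, 10 had a region in the window and 10 within 3 kb of a start. The shares over all protein-coding genes were 52.0% and 27.5%. In this list the median number of regions per window was 1, the same as over all genes. The highest promoter pileup was at ATF4, the central transcription factor of the integrated stress response, with 44 fragments (32.0 to 59.1) and a fold of 13.6. HSPA5, the gene of the chaperone BiP, had 37 (26.1 to 51.0) and PPP1R15A, also called GADD34, had 35 (24.4 to 48.7). TRIB3 and ASNS had none, named after their values were seen. In both lists 0 genes had a pileup of 81 or more, or 4 or more regions of the upper 10%. Of all protein-coding genes, 0.105% and 0.35% did.

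**Figure D4:**
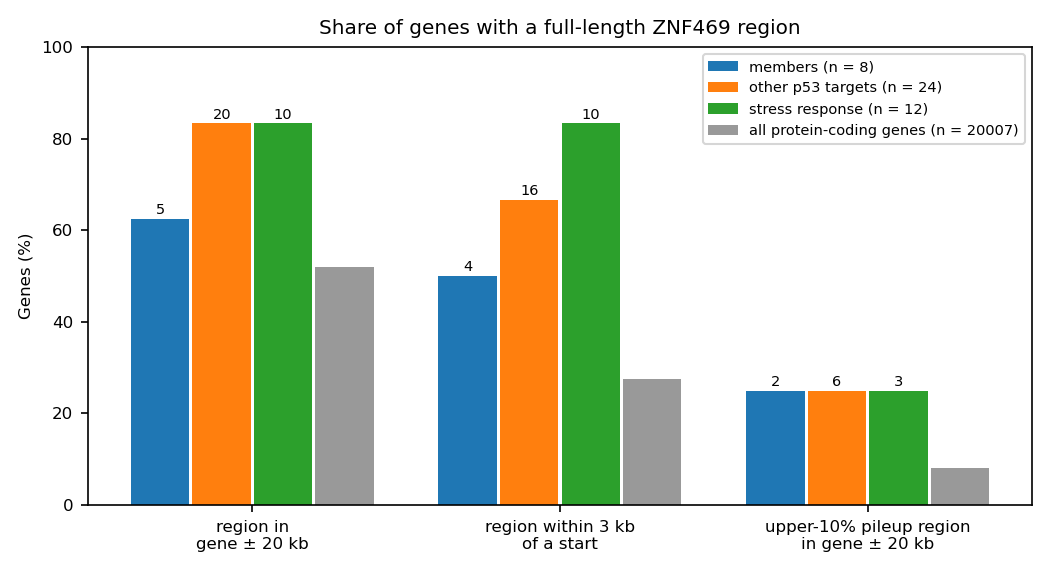
Share of genes in percent with a full-length region in the window, within 3 kb of a start, or of the upper 10% by pileup in the window. Bars are the 8 members, 24 other p53 targets, 12 stress response genes and all 20007 protein-coding genes (grey), with the number of genes above each list bar. In each of the 3 groups of bars all lists stand above the grey bar, and the members stand below the other lists in the first and second.

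The dZF list had 0 regions in the 8 windows, in the 24 other p53 target windows and in the 12 stress response windows, beside 0.125% of all protein-coding genes with one. The nearest dZF region to a member was 111 kb from DDIT4. The lowest local background of the full-length list was 1.38 times that of the dZF list, and the member regions were also scaled down by that ratio. This single value is not a measure of library depth, which was not analysed here, and the part of depth in the empty dZF windows was not tested. The scaled −log10 p-values ran from 7.79 at the downstream GADD45A region to 25.1 at the GADD45A promoter, and those of the dZF list had a lowest value of 7.62 and a median of 22.0. With 1 pooled list for each construct, replicates cannot gauge the difference between constructs, and it was not tested.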

How the data were processed

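CUT&RUN peak lists of 2 groups were used, full-length ZNF469 and dZF-ZNF469, each combining 3 libraries. Per the labels, the processing notes of the submitters name bcl2fastq, Bowtie2 2.3.4.3, MACS2 2.2.5, R 4.2.1, deepTools 3.5.1 and hg38. The authors kept records that passed an irreproducible discovery rate filter. Deposited values for each record were a score, a fold enrichment (ratio to local background), −log10 p- and q-values, and the summit offset in bp. The q-value columns, 2 in all, were not used. Whether a control library entered the background is not given in the sources used here. Positions fitted hg38 chromosome lengths and are counted from 1.

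Summit pileup was recovered as the whole number that explains fold and −log10 p-value under the MACS formulas, (pileup + 1)/(background + 1) and the upper Poisson tail. This held for 100% of records (largest miss 6.94e-05 in −log10 p), and the procedure was tested on simulated data. PCR duplicates are not separated from molecules, so limits and intervals cover counting error only, and library totals were not analysed here.

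Regions overlapping a gene body of GENCODE version 44 with 20 kb flanks by at least 1 bp were taken for all 8 members. The upper 10% by pileup held 2019 records with 35 or more fragments, ties included. Motifs were scanned with Python 3.11.15 and pysam 0.24.0. No test was run between groups or genes. Shares over all protein-coding genes or all regions stand beside counts of genes and of regions, but not beside counts of motif matches over whole windows. Of the 2 further gene lists, genes with an upper 10% region within 3 kb of a start were named, except 1 that is not reported here, and of genes like GADD45A the 3 above and 3 below it by highest pileup. The members and lists were chosen with earlier results of these data known. Crowding and motif counts over whole windows were added after the data were seen. Alternatives changed the flank, the stringency, the promoter distance and the motif window.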

Additional observations from a re-analysis of the deposited data

How the results depend on the processing

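Of 103 values under alternatives, 78 stayed within 1.5 times the reported count or within the 95% limits of the reported value. The 10 regions became 5 without flanks, 22 with flanks of 50 kb, and 5 in both the upper 50% and the upper 25% by fold. Each fold filter removed all 5 GADD45A regions, so its highest pileup became 0 in the upper 25%. There the number of members with an upper 10% pileup region fell from 2 to 1, beside 6.19% of all protein-coding genes. That number was also 1 when the upper 5% by pileup was taken, beside 4.10% of all protein-coding genes. The AP-1 count rose from 3 to 6 in full regions and to 7 with 1 mismatch allowed, where 72.7% of all full-length regions had a match. Of the 36 other p53 and stress genes, 18 in place of 30 had a region in the upper 25% by fold. Over all protein-coding genes the share was 23.4% in place of 52.0%. That counts fell under stricter settings and rose under wider ones follows from the construction of the alternatives. Which genes lost regions by fold follows from the folds given above and adds no separate result. GADD45A, with folds below the list median, lost all 5, whereas GADD45B, MDM2, DDIT3 and DDIT4, with folds above the upper quartile, kept theirs. The highest pileup of GADD45A was 81 with no flank and with 50 kb, and with 50 kb BBC3 had 3 regions in place of 0. No paired analysis was possible because the 3 libraries of a group were merged before deposition. For the same reason, no fit without a single library was run.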
